A study of Mus musculus with 3 samples.

Results

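Protein phosphatases that remove phosphate from serine and threonine residues are built from a small set of related catalytic subunits, each joined to regulatory subunits that choose the substrate and the place in the cell. The RNA levels of 9 genes of this kind were taken from the 23421 genes of an RNA-seq table of E6.5 mouse embryos. The 9 genes were picked by symbol and not by a rule on their values, though with earlier results of these data known, and all 9 were listed. They comprised the PP1 catalytic subunits *Ppp1ca*, *Ppp1cb* and *Ppp1cc*, the catalytic subunits *Ppp4c*, *Ppp5c* and *Ppp6c*, and the striatins *Strn*, *Strn3* and *Strn4*. Striatins are regulatory subunits of another phosphatase of the family, PP2A, whose scaffold gene *Ppp2r1a* lies in the *tw18* deletion.

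The study compared wild-type, *tw18*/+ and *tw18*/*tw18* embryos of the 129/SvEv strain at embryonic day 6.5, obtained by crossing *tw18*/+ mice, with 1 library per genotype. The *tw18* haplotype carries a large deletion on Chr 17, so by genotype *tw18*/*tw18* embryos should lack *Ppp2r1a* and other genes with it. The library labelled *tw18*/*tw18* was not free of *Ppp2r1a* RNA, at 8.72% of the wild-type level, and *tw18*/*tw18* stands for this library as labelled throughout. The labels call the tissue epiblast, and by the study's methods it was the embryo proper, epiblast together with the visceral endoderm around it, while the extra-embryonic part was kept for genotyping. The number of embryos behind a library was not given. The labels give 129/SvEv as the strain, but the study also considers that the genetic background may vary from embryo to embryo. With 1 library per genotype there was no spread between embryos, and no difference was given a p-value.

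PP1, PP4, PP5 and PP6 share a catalytic fold with PP2A and calcineurin and are therefore grouped as the PPP family. PP1 works with a very large number of regulators and acts in mitosis, in splicing and in the shape of the cytoskeleton. PP4 and PP6 are close relatives of PP2A with regulatory subunits of their own, PP5 carries its own protein-binding repeats and docks on the chaperone HSP90, and the striatins join PP2A to kinases in the STRIPAK complex. PP2A itself is known to act in WNT signaling.

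Kinship of the catalytic subunits can be seen in their coding sequences. The stretch below is the 60 bases without a gap that were most alike in all 6 genes, 26 of them identical in every gene. It is shown because fragments can be told apart between such relatives only where they differ. Capitals mark bases that differ from *Ppp1ca*. The sequences were read from the GENCODE transcripts (GRCm38), in the direction of the transcript.
Ppp1ca: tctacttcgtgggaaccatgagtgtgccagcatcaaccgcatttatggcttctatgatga
Ppp1cb: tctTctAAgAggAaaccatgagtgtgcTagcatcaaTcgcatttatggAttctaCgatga
Ppp1cc: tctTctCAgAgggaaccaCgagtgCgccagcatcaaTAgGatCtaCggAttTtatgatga
Ppp4c: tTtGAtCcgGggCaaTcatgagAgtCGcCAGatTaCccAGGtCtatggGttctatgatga
Ppp5c: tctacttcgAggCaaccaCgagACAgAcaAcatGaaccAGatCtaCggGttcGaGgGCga
Ppp6c: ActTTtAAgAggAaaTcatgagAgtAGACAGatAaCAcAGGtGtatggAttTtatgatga
The stretch lies in exon 3 of *Ppp1ca* (chr19:4193191-4193250, plus strand), *Ppp1cb* (chr5:32480859-32480918, plus strand) and *Ppp1cc* (chr5:122169088-122169147, plus strand), and in exon 5 of *Ppp4c* (chr7:126787528-126787587, minus strand). It crosses an intron in *Ppp5c* (exons 7 and 8, chr7:17007198-17007736, minus strand) and in *Ppp6c* (exons 4 and 5, chr2:39200118-39204888, minus strand). Against *Ppp1ca* it differed at 9 bases in *Ppp1cb*, 13 in *Ppp1cc*, 20 in *Ppp4c*, 18 in *Ppp5c* and 24 in *Ppp6c*.

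Over the whole coding sequence, *Ppp1ca* and *Ppp1cc* were identical at 79.0% of aligned bases, *Ppp1ca* and *Ppp1cb* at 74.7%, and *Ppp1cb* and *Ppp1cc* at 74.5%. *Ppp4c* and *Ppp6c* were closer to the PP2A gene *Ppp2ca*, at 64.3% and 61.5%, than to *Ppp1ca*, at 56.3% and 53.3%. *Ppp5c* stood farthest from the rest, with 50.6% against *Ppp1ca*. The longest run of identical coding bases between any of the 6 genes was 44, in *Ppp1ca* and *Ppp1cc*, shorter than a read of 50 bp. No 50-base word of any of the 9 main transcripts occurred in another of the 9 genes. Fragments could however be shared with other genes. *Ppp1cc* had 58.8% of its words in common with other annotated genes, above all the copy *Ppp1ccb*, which the table does not list, and *Ppp1ca* had 19.7% in common with genes on the opposite strand, mainly *Rad9a*.

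The striatins are scaffold proteins of similar build, and their most alike stretch of 60 coding bases, 45 of them identical in all 3 genes, is given for comparison with the catalytic subunits. Capitals mark bases that differ from *Strn*.
Strn: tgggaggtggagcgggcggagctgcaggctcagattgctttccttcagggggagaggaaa
Strn3: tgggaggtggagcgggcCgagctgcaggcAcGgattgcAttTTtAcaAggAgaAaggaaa
Strn4: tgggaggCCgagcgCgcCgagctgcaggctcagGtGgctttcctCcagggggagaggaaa
It runs from exon 1 to exon 2 in each gene, at chr17:78700921-78736280 (minus strand) in *Strn*, chr12:51661681-51691448 (minus strand) in *Strn3* and chr7:16816608-16822528 (plus strand) in *Strn4*. *Strn3* differed from *Strn* at 10 of these bases and *Strn4* at 7. Whole coding sequences were less alike, at 65.1% for *Strn* and *Strn3*, 61.3% for *Strn* and *Strn4* and 57.0% for *Strn3* and *Strn4*.

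*Strn* is the only one of the 9 genes on Chr 17, at 78649913 to 78737196, 57.7 Mb distal to *Ppp2r1a*. *Strn4* and *Ppp5c* lie 164 kb apart on Chr 7. *Ppp4c* is on the same chromosome, *Ppp1cb* and *Ppp1cc* are both on Chr 5, *Ppp6c* is on Chr 2, *Strn3* on Chr 12 and *Ppp1ca* on Chr 19.

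The values are FPKM, the fragments on a gene per kilobase of transcript and scaled to the size of the library, so levels of different genes can be set side by side. From the steps between low FPKM values the depth was estimated at about 14700000 fragments in wild type, 20800000 in *tw18*/+ and 20500000 in *tw18*/*tw18*. These depths hold only if FPKM were scaled to each library's own total of fragments, which the sources do not state. *Ppp2r1a* was at 146 FPKM in wild type, 81.7 in *tw18*/+ and 12.8 in *tw18*/*tw18*. The order is that of the labels. The last value was above that of *Strn* in the same library, although by genotype these embryos should lack *Ppp2r1a*. Where these fragments came from was not tested, and every difference given for *tw18*/*tw18* holds for a library with this remainder. Marker genes of several tissues also differed between the libraries. Of all 12917 genes at FPKM 1 or more in *tw18*/*tw18* or wild type, 15.1% were at least 2-fold higher in *tw18*/*tw18* and 6.94% lower. The summed FPKM of 10 epiblast markers was 1949 in wild type, 2071 in *tw18*/+ and 1002 in *tw18*/*tw18*, where 5 of the 10 were at least 2-fold lower than in wild type, and that of 10 visceral endoderm markers was 1123, 1096 and 1494, with 0 past this mark. Although the extra-embryonic part had been removed, all 7 extra-embryonic ectoderm markers were at least 2-fold higher in *tw18*/*tw18* than in wild type (sums of 14.8, 14.7 and 47.3). Of 10 markers of decidua and stroma 8 were higher by as much and 1, *Prl8a2*, was lower. The sum of the other 9 was 202, 178 and 669, while *Prl8a2* alone had 1504, 155 and 377. For 7 endothelial markers the sum was 54.3, 44.1 and 104, with 4 higher. The erythroid markers (6 of 7 listed) summed to 52.5, 56.3 and 177, with 3 higher and 1 lower of the 4 expressed, and the 6 immune markers to 21.4, 11.5 and 32.0, with 1 higher of 4 expressed. *Hbb-y* was listed at 0 in all 3 libraries and *Nkg7* in wild type and *tw18*/+. The part of these tissues in the differences given below was not tested, and in such bulk samples fewer cells of a type cannot be told apart from less RNA per cell.

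All 9 genes were well expressed in all 3 libraries, between an FPKM of 9.01 and 221, and their order from high to low was the same in each library: *Ppp1ca*, *Ppp1cc*, *Ppp4c*, *Ppp5c*, *Ppp1cb*, *Ppp6c*, *Strn4*, *Strn3*, *Strn*. The highest gene exceeded the lowest 15.1-fold in wild type, 24.5-fold in *tw18*/+ and 17.4-fold in *tw18*/*tw18*. Neighbours in this order were closest for *Ppp1ca* and *Ppp1cc* in wild type (1.08-fold), for *Ppp6c* and *Strn4* in *tw18*/+ (1.18-fold) and for the same pair in *tw18*/*tw18* (1.16-fold). Whether such neighbours differ beyond the spread between embryos cannot be said from 1 library each.

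**Figure D1:**
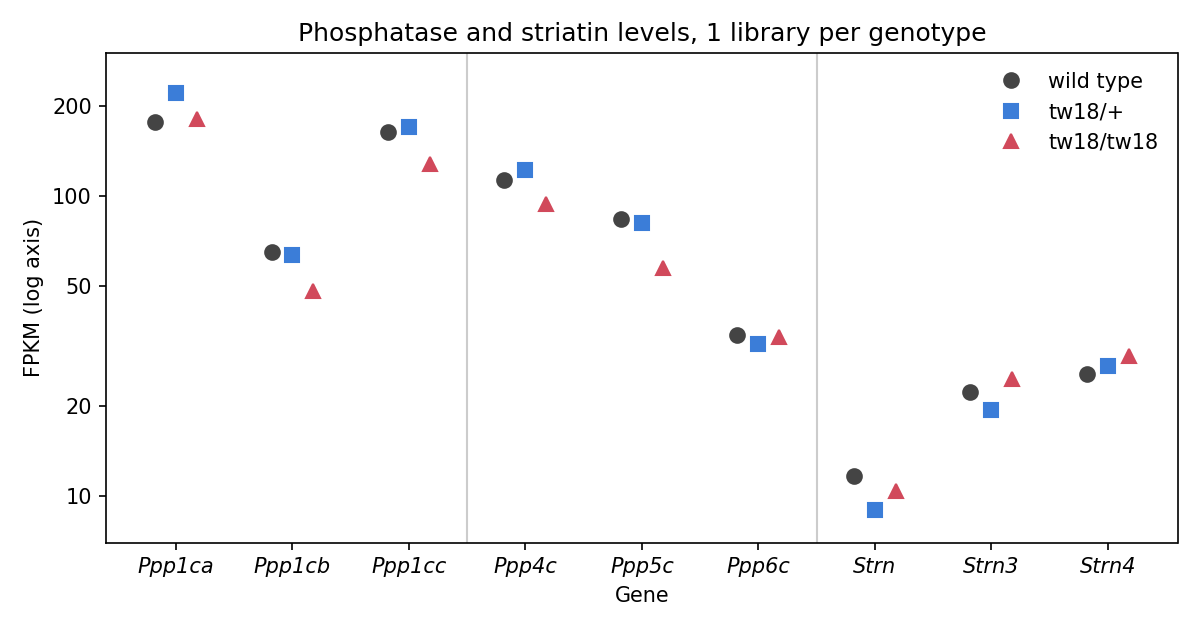
FPKM (log axis) of the 9 genes, with 1 point per library: circle, wild type; square, *tw18*/+; triangle, *tw18*/*tw18*. The order of the genes is the same in each library, and the points of any 1 gene lie within 1.45-fold of each other.

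No gene of the 9 reached a log2 ratio of 1, that is a 2-fold difference, in any pair of libraries. Between *tw18*/*tw18* and wild type 0 of 9 did, where 22.0% of all 12917 genes expressed in the pair (FPKM 1 or more in at least 1 of the libraries) did so. Raising the minimum to 5, which all 9 genes also pass, lowered that share to 13.1% of 9289 genes. Between *tw18*/+ and wild type it was 0 of 9 against 9.72%, and between *tw18*/*tw18* and *tw18*/+ 0 of 9 against 20.5%. These last shares cover genes from FPKM 1 upward and were not taken at a minimum of 5. From its lowest to its highest library a gene varied by between 1.07-fold, for *Ppp6c*, and 1.45-fold, for *Ppp5c*. The 3 pairs share their libraries and are not independent of each other.

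Between *tw18*/*tw18* and wild type, the direction of 2 of the 9 genes depended on how the libraries were scaled. Over 5399 abundant genes (FPKM 10 or more in every library), the log2 ratio of *tw18*/*tw18* against wild type had a median of -0.16 and quartiles of -0.40 and 0.14, and 65.1% of these genes were lower. Scaling the libraries to equal FPKM sums adds 0.21 to every log2 ratio of this pair. The shift is 0.18 without *Lars2*, the most abundant gene of the wild-type and *tw18*/+ libraries (FPKM 11199 and 9689), which is listed at 0 in *tw18*/*tw18*. Among the 9 genes 6 were lower and 3 higher on the deposited values, with a median of -0.16, against 4 lower and 5 higher at equal sums, with a median of 0.049. *Ppp6c* and *Strn* are the genes whose sign turned, and the other 7 kept theirs under each scaling. In both other pairs 4 genes were higher and 5 lower under each scaling, and no sign turned. Log2 ratios below are on the deposited scale, with a 95% exact interval that covers counting error only, from the estimated number of fragments.

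**Figure D2:**
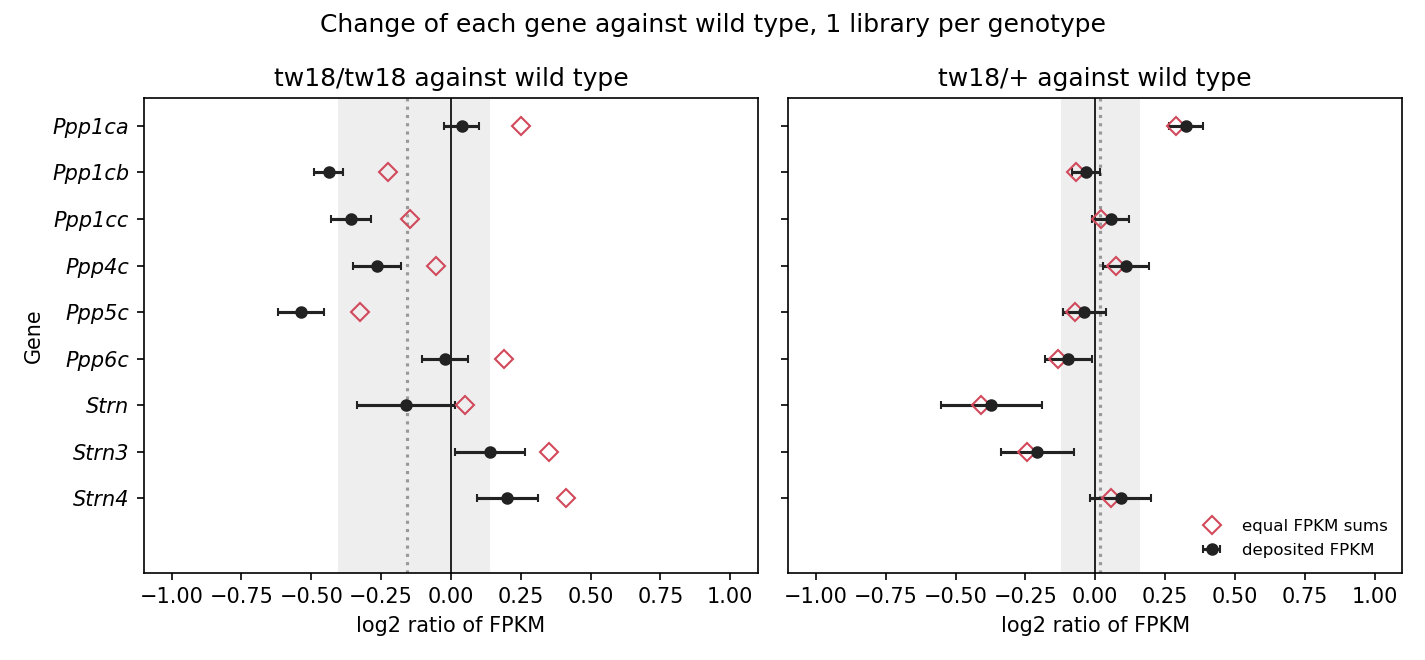
Log2 ratio of FPKM for each gene, *tw18*/*tw18* against wild type (left) and *tw18*/+ against wild type (right). Filled points are deposited values with 95% counting intervals, open diamonds the values at equal FPKM sums; the grey band spans the quartiles and the dotted line the median (-0.16 left, 0.018 right) of the 5399 abundant genes (FPKM 10 or more in every library).

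*Ppp1ca* encodes the alpha isoform of the PP1 catalytic subunit. Its FPKM was 176 in wild type, 221 in *tw18*/+ and 181 in *tw18*/*tw18*. The *tw18*/+ library was thus the high one, by a log2 ratio of 0.32 against wild type (0.26 to 0.38), while *tw18*/*tw18* stood at 0.038 (-0.025 to 0.10). *Rad9a*, which overlaps the gene on the other strand, had 28.0, 37.9 and 30.1, also highest in *tw18*/+ by a log2 ratio of 0.44. Whether fragments passed between the 2 genes was not tested.

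*Ppp1cb*, the beta isoform, is best known as the catalytic subunit of myosin phosphatase. Its level was 65.3 FPKM in wild type, 63.7 in *tw18*/+ and 48.2 in *tw18*/*tw18*. Wild type and *tw18*/+ were close (-2.33%), and *tw18*/*tw18* was the low library, at -26.2% against wild type, a log2 ratio of -0.44 (-0.49 to -0.38). That is below the lower quartile of the abundant genes. At equal FPKM sums the ratio was -0.23.

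*Ppp1cc*, the gamma isoform, gives rise to a ubiquitous and a testis-enriched splice form. Its FPKM was 164 in wild type, 170.0 in *tw18*/+ and 128 in *tw18*/*tw18*. It followed *Ppp1cb*, with a log2 ratio of 0.056 in *tw18*/+ (-0.010 to 0.12) and -0.36 in *tw18*/*tw18* (-0.43 to -0.29). Since 58.8% of its words occur in other genes, the share of its fragments that the authors' counting kept is uncertain.

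A library's scale cancels out when genes of the same library are set against each other, and on this measure the balance of the PP1 isoforms differed between libraries. *Ppp1ca* made up 43.5% of the summed PP1 FPKM in wild type, 48.6% in *tw18*/+ and 50.8% in *tw18*/*tw18*. *Ppp1cc* took 40.4%, 37.4% and 35.8% in the same order, and *Ppp1cb* 16.1%, 14.0% and 13.5%. The ratio of *Ppp1ca* to *Ppp1cc* was 1.08, 1.30 and 1.42, and that of *Ppp1cc* to *Ppp1cb* 2.51, 2.67 and 2.65. So *Ppp1ca* held a larger share in both libraries that carry *tw18* than in wild type, while the other 2 isoforms stood in nearly the same proportion to each other. Whether this exceeds the spread between embryos cannot be said from these libraries. On the deposited values *Ppp1ca* was higher in *tw18*/+ (log2 ratio 0.32) but near wild type in *tw18*/*tw18* (0.038). There *Ppp1cb* (-0.44) and *Ppp1cc* (-0.36) were lower. The shares were not corrected for sequence in common with other genes, 58.8% of words for *Ppp1cc* and 19.7% for *Ppp1ca*. The summed PP1 FPKM was 405 in wild type, 455 in *tw18*/+ and 357 in *tw18*/*tw18*.

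**Figure D3:**
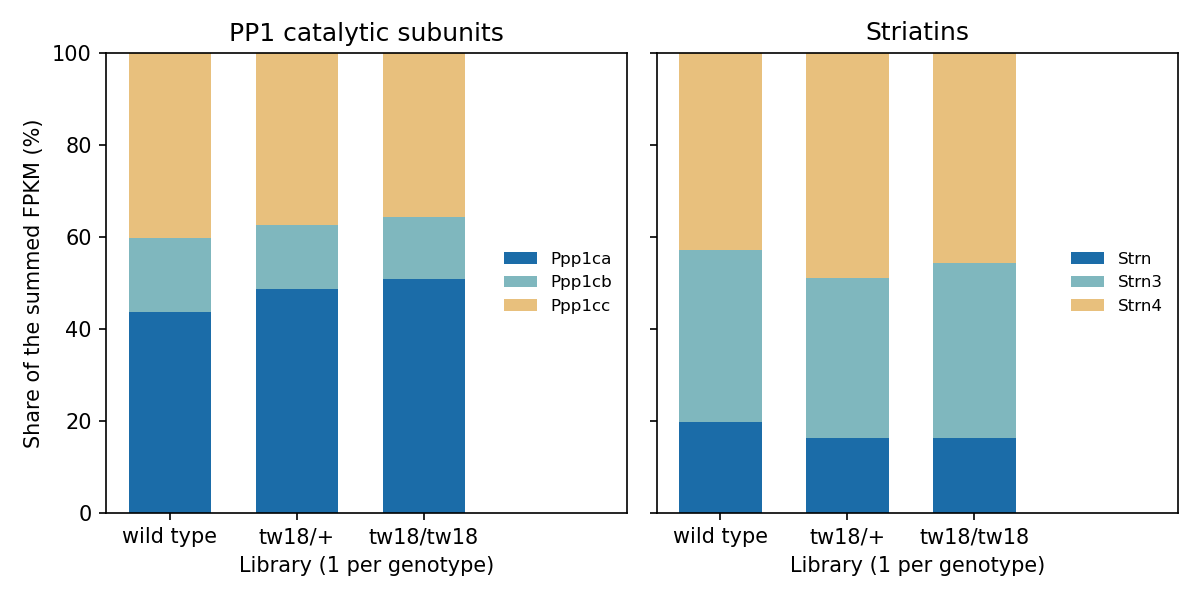
Share of the summed FPKM, in percent, of each PP1 catalytic subunit (left) and each striatin (right) in the 3 libraries, each bar showing the whole. The *Ppp1ca* part is 43.5% in wild type and 50.8% in *tw18*/*tw18*, and the *Strn* part is 19.6% in wild type and 16.2% in the other libraries.

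*Ppp4c*, the catalytic subunit of a phosphatase known from centrosomes and the DNA damage response, measured 113 FPKM in wild type, 122 in *tw18*/+ and 94.0 in *tw18*/*tw18*. It was highest in *tw18*/+ (log2 ratio 0.11, 0.028 to 0.19) and lowest in *tw18*/*tw18* (-0.27, -0.35 to -0.18). At equal FPKM sums the difference in *tw18*/*tw18* nearly vanished, at -0.054.

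*Ppp5c*, whose product binds HSP90 through its own repeats, varied most among the 9 genes on the deposited values. Its FPKM was 83.7 in wild type, 81.5 in *tw18*/+ and 57.7 in *tw18*/*tw18*. The first 2 libraries were close, by a log2 ratio of -0.038 (-0.12 to 0.039), and *tw18*/*tw18* stood at -31.1% against wild type, a log2 ratio of -0.54 (-0.62 to -0.45). Ranked within its library, the gene went from place 824 in wild type and 885 in *tw18*/+ to 1148 in *tw18*/*tw18*. It is the only one of the 9 beyond a log2 ratio of 0.5 in this pair, where 46.2% of the 12917 genes were. The other pairs had 0 of 9 past 0.5, against 24.0% of all genes for *tw18*/+ and wild type and 46.3% for *tw18*/*tw18* and *tw18*/+. These shares cover genes from FPKM 1 upward, many of them less abundant than the 9, and were not taken at a higher minimum. At the 2-fold mark, a minimum of 5 lowered the share from 22.0% to 13.1% between *tw18*/*tw18* and wild type. The counts past 0.5 hold on the deposited scale. At equal FPKM sums *Ppp5c* no longer passed 0.5 and *Strn3* did, at 0.59 between *tw18*/*tw18* and *tw18*/+. Before rescaling, between *tw18*/*tw18* and *tw18*/+ *Ppp5c* was just inside, at -0.50. At equal FPKM sums its ratio against wild type was -0.33.

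*Ppp6c*, the catalytic subunit of the phosphatase that acts on the mitotic kinase Aurora A, varied least on the deposited values. Its level was 34.5 FPKM in wild type, 32.3 in *tw18*/+ and 34.0 in *tw18*/*tw18*, a log2 ratio of -0.097 in *tw18*/+ (-0.18 to -0.013) and -0.022 in *tw18*/*tw18* (-0.10 to 0.062). At equal FPKM sums the latter became 0.19. Set against each other within a library, *Ppp5c* was 2.43 times as high as *Ppp6c* in wild type, 2.53 times in *tw18*/+ and 1.70 times in *tw18*/*tw18*. For *Ppp4c* over *Ppp6c* the ratio was 3.28, 3.78 and 2.77.

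Among 11 PPP catalytic genes, these 6 together with the PP2A and calcineurin genes, the 6 made up 71.5% of the summed FPKM in wild type, 73.8% in *tw18*/+ and 72.6% in *tw18*/*tw18*. PP1 alone took 45.5%, 48.6% and 47.8%, and the PP2A genes *Ppp2ca* and *Ppp2cb* 24.3%, 22.4% and 21.9%. *Ppp2ca* had a log2 ratio of -0.40 in *tw18*/*tw18*, between those of *Ppp1cc* and *Ppp1cb*.

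*Strn* encodes striatin, the founding member of the family, and was the least abundant. Its FPKM was 11.7 in wild type, 9.01 in *tw18*/+ and 10.4 in *tw18*/*tw18*. It was lowest in *tw18*/+, by a log2 ratio of -0.37 (-0.55 to -0.19), while the ratio of *tw18*/*tw18* was -0.16 with an interval that includes 0 (-0.34 to 0.015). These values rest on about 485, 529 and 603 fragments, the fewest of the 9 genes. They were counted on the shortest well-supported coding transcript, of 2967 bp. The main transcript of *Strn* has 8629 bp, a length that would give more fragments and a narrower interval. Whether *Strn* has the fewest fragments, and whether its interval includes 0, depends on this choice.

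*Strn3*, also known as SG2NA, was at 22.3 FPKM in wild type, 19.3 in *tw18*/+ and 24.6 in *tw18*/*tw18*. Like *Strn* it was lowest in *tw18*/+ (log2 ratio -0.21, -0.34 to -0.077), and it was highest in *tw18*/*tw18* (0.14, 0.015 to 0.26). *Ap4s1* on its other strand was low in *tw18*/+ and *tw18*/*tw18* alike, with 6.96, 5.45 and 5.58.

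*Strn4*, or zinedin, was at 25.6 FPKM in wild type, 27.2 in *tw18*/+ and 29.4 in *tw18*/*tw18*, so that it was highest in the homozygous library. Its log2 ratio was 0.091 in *tw18*/+ (-0.020 to 0.20) and 0.20 in *tw18*/*tw18* (0.092 to 0.31), and 0.41 in *tw18*/*tw18* at equal FPKM sums.

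Taking the striatins as a group, the summed FPKM was 59.6 in wild type, 55.6 in *tw18*/+ and 64.4 in *tw18*/*tw18*. *Strn4* held the largest share, with 42.9%, 49.0% and 45.6%, followed by *Strn3* with 37.5%, 34.8% and 38.2%, and *Strn* with 19.6%, 16.2% and 16.2%. Set against the summed FPKM of *Ppp2ca* and *Ppp2cb*, the catalytic subunits they work with, the striatins stood at 0.27 in wild type, 0.26 in *tw18*/+ and 0.39 in *tw18*/*tw18*. This measure does not depend on the scale of the libraries.

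How the partners of these phosphatases behaved was described from 8 lists with 83 genes, all found in the table. Of these, 73 were expressed (FPKM 1 or more) in *tw18*/*tw18* or wild type. Of the 73, 5 (6.85%) were at least 2-fold higher in *tw18*/*tw18* and 4 (5.48%) lower, against 15.1% and 6.94% of all genes. At equal FPKM sums 8 were higher and 2 lower. Between *tw18*/+ and wild type 2 of 71 were higher, *Ppp1r14a* and *Ppp1r14c*, and 0 lower, where 4.70% and 5.02% of all genes were. Medians of the lists are differences of log2(FPKM + 1) between *tw18*/*tw18* and wild type, on which scale the median of all 12917 genes was -0.0074. For the abundant genes the median log2 ratio, without a pseudocount, was lower, at -0.16.

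Of 7 expressed inhibitors of PP1, 1 was higher and 1 lower, single genes beside the 15.1% and 6.94% of all genes. *Ppp1r1a*, inhibitor 1 of PP1, was lower, at 15.9 FPKM in wild type, 16.6 in *tw18*/+ and 4.31 in *tw18*/*tw18* (log2 ratio -1.88). *Ppp1r14a*, the myosin phosphatase inhibitor CPI-17 of smooth muscle, was higher, with 1.91, 5.37 and 5.89 (1.63), and was already high in *tw18*/+ (1.49). *Ppp1r14c*, a relative of it, had low values of 0.545, 1.23 and 0.310. *Ppp1r14b*, the most abundant inhibitor, had 194, 229 and 154, and *Ppp1r8*, the nuclear inhibitor NIPP1, 55.0, 58.6 and 46.5. The median of the list was -0.24.

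Targeting subunits, which bring PP1 to a place or substrate, gave 3 higher and 0 lower of 27, with a median of 0.055. The 3 are 11.1% of the list, where 15.1% of all genes were higher and 6.94% lower. *Ppp1r18*, known as phostensin and bound to actin filaments, was at 7.03 FPKM in wild type, 8.45 in *tw18*/+ and 14.9 in *tw18*/*tw18* (log2 ratio 1.08). *Ppp1r9b*, spinophilin, had 4.08, 3.55 and 8.44 (1.05). With a pseudocount of 1 both fall just below a log2 ratio of 1, at 0.98 and 0.89. The third, *Ppp1r3b*, a glycogen-targeting subunit, had low values of 0.566, 0.467 and 2.10. *Rif1*, a regulator of replication timing, had 54.8, 50.4 and 37.8 (-0.54), and *Wdr82*, part of a nuclear PP1 complex, 30.6, 31.6 and 27.4 (-0.16).

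PP4 regulators, 5 genes, had 0 past the 2-fold mark, beside 22.0% of all genes, and a median of -0.33. All 5 were below wild type in *tw18*/*tw18*, and 4 of 5 at equal FPKM sums. On the deposited values 53.3% of the 11069 genes at FPKM 1 or more in every library were below wild type, and 65.1% of the abundant genes. The share at equal sums was not taken. *Ppp4r2* was at 44.3 FPKM in wild type, 49.2 in *tw18*/+ and 38.6 in *tw18*/*tw18* (log2 ratio -0.20), and *Ppp4r3a*, listed as *Smek1*, 34.0, 34.3 and 26.4 (-0.37). The catalytic subunit *Ppp4c*, at -0.27, lay between them.

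For PP6, 5 of 6 regulators were above wild type, 1 of them past the 2-fold mark, with a median of 0.26. At least 2-fold higher were 15.1% of all genes. Of all genes at FPKM 1 or more in every library, 53.3% were below wild type. *Ankrd44*, an ankyrin-repeat scaffold, was at 2.62 FPKM in wild type, 1.99 in *tw18*/+ and 5.89 in *tw18*/*tw18* (log2 ratio 1.17, or 0.93 with a pseudocount of 1). *Ppp6r1* had 35.9, 35.5 and 45.5 (0.34) and *Ppp6r3* 42.1, 40.7 and 35.5 (-0.25).

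HSP90 genes and their co-chaperone *Cdc37* were listed as partners of PP5, and 0 of 3 passed the 2-fold mark, with a median of -0.48. That mark was passed by 22.0% of all genes. *Hsp90ab1* was at 1856 FPKM in wild type, 1997 in *tw18*/+ and 1444 in *tw18*/*tw18* (log2 ratio -0.36), and *Hsp90aa1* 1205, 1231 and 857 (-0.49). Like *Ppp5c*, all 3 were below wild type in *tw18*/*tw18*, also at equal FPKM sums. So were 65.1% of the abundant genes on the deposited values, and their share at equal sums was not taken.

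STRIPAK partners of the striatins numbered 12 expressed genes, with 0 higher and 1 lower, and their median was 0.045. Among all genes 15.1% were higher and 6.94% lower by this mark. The lower one, *Cttnbp2*, had values near the minimum, 1.18 in wild type, 1.01 in *tw18*/+ and 0.572 in *tw18*/*tw18*. The kinase gene *Stk24* was at 44.0 FPKM, 43.4 and 31.1 in this order (log2 ratio -0.50), and *Mob4*, a core subunit, 36.4, 28.8 and 26.0 (-0.48).

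Among the other PPP catalytic subunits and PP2A scaffolds, 1 of 7, *Ppp2r1a*, was past the 2-fold mark (log2 ratio -3.52), with a list median of -0.40. In all, 22.0% of all genes passed this mark, and 6.94% were lower by it. Of 6 listed regulators of the catalytic subunits of PP2A or its close relatives, 1 was lower and the median was -0.42. This was *Lcmt1*, the enzyme that methylates the end of these catalytic subunits, at 28.3 FPKM in wild type, 23.2 in *tw18*/+ and 13.5 in *tw18*/*tw18*. Its log2 ratio of -1.07 became -0.85 at equal FPKM sums. *Set*, a PP2A inhibitor, had 432, 421 and 249 (-0.79), and *Ptpa*, an activator listed as *Ppp2r4*, 50.02, 47.4 and 43.7 (-0.20).

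**Figure D4:**
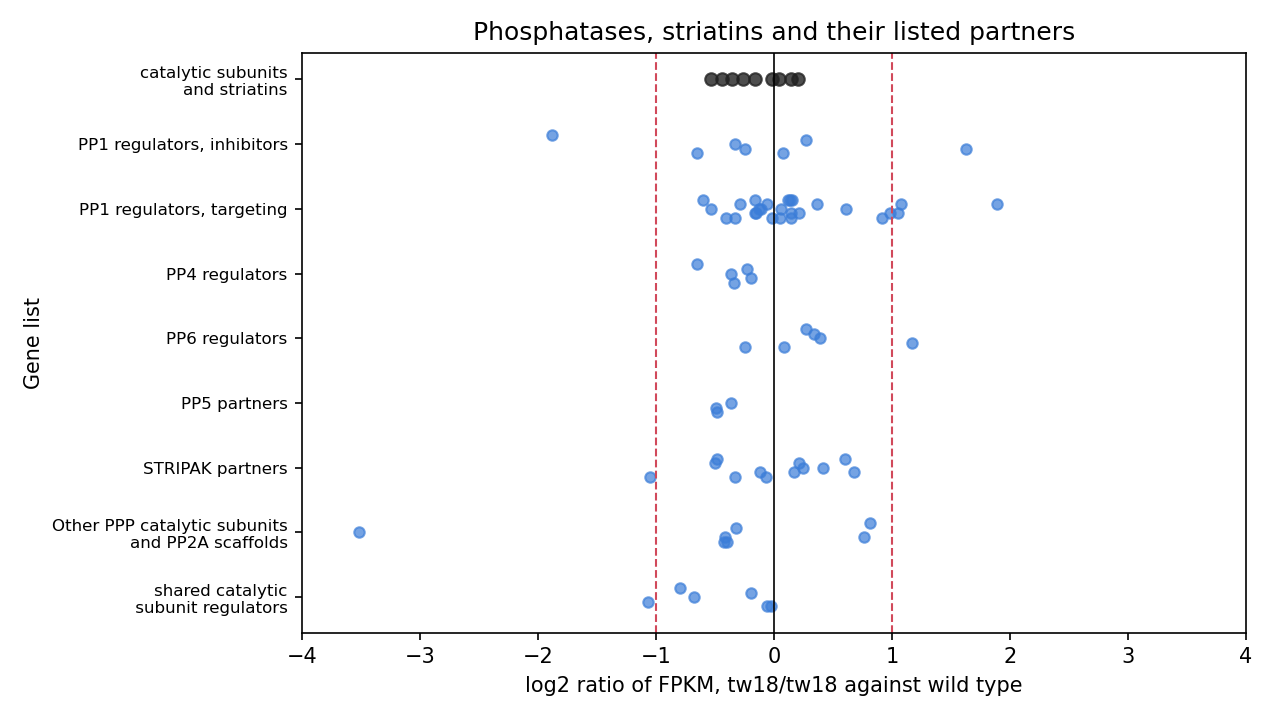
Log2 ratio of FPKM, *tw18*/*tw18* against wild type, for the 9 catalytic subunits and striatins (black, top) and for the 73 listed partners at FPKM 1 or more in either library (blue, 1 point per gene, 1 line per list, points offset vertically for legibility). Dashed lines mark log2 ratios of -1 and 1; the 9 genes lie between -0.54 and 0.20, and the point farthest left is *Ppp2r1a*.

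The list genes nearest in pattern were sought for the gene that varied most and the one that varied least against wild type, by the distance between their pairs of log2 ratios, among 54 list genes at FPKM 5 or more in every library. Nearest to *Ppp5c* were *Stk24* (distance 0.043), *Hsp90aa1* (0.082) and *Rif1* (0.083), and 9 of the 54 lay within 0.2. Nearest to *Ppp6c* were *Pdcd10* (0.070), *Ppp1r37* (0.096) and *Phactr4* (0.098), and 8 of the 54 lay within 0.2.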

How the data were processed

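Reads of 50 bp, sequenced in pairs, were mapped by the authors to mm10, and the FPKM values they deposited per gene symbol come from Cuffdiff. The submitters' processing notes name TopHat2, Bowtie 1.0.0 and Cufflinks 2.2.1. The gene annotation, strand setting and library scaling are not given in the sources used here. FPKM are relative, so highly abundant genes affect the rest. The 9 genes and the lists were chosen with earlier results of these data known. List genes named were those at least 2-fold different between *tw18*/*tw18* and wild type and at FPKM 5 or more in either, and the 2 most abundant of each list in wild type, beside the 3 nearest in pattern to *Ppp5c* and to *Ppp6c*. *Ppp1r3b*, *Ppp1r14c*, *Cttnbp2*, *Cdc37*, *Ppp2cb*, *Lars2*, *Prl8a2* and the genes on opposite strands were named in addition, after their values were seen. Newer symbols were matched through synonyms.

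Log2 ratios carry no pseudocount. Genes were counted as different where the higher FPKM was at least 1 and the log2 ratio at least 1 in size. Depth was estimated from the steps of low FPKM values of genes with 1 annotated transcript. Of those values 84.0% to 86.9% corresponded to whole fragments with a tolerance of 0.2, so fragment numbers are approximate. They used the shortest well-supported coding transcript less 150 bp. Intervals are exact binomial (Clopper-Pearson), for counting error only, and PCR copies are not independent molecules. Positions and transcripts came from GENCODE M21 (GRCm38, the build of mm10), and coding sequences were aligned with MAFFT 7.526. Python 3.11.15, numpy 2.4.6, pandas 2.3.3, scipy 1.17.1 and matplotlib 3.10.9 were used, and the procedures were tested on simulated data. Alternatives tried were pseudocounts, filters, a lower threshold, other scalings and *tw18*/+ as reference.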

Additional observations from a re-analysis of the deposited data

How the results depend on the processing

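No gene of the 9 passed a log2 ratio of 1 in any pair of libraries with pseudocounts of 0.1 or 1, with no filter or an FPKM of at least 5, centred on the median log2 ratio, or scaled to equal FPKM sums with and without *Lars2*. At a threshold of 0.5 the number was 1 for *tw18*/*tw18* against wild type (*Ppp5c*) and 0 for the other pairs. With this threshold and a scaling together, chosen after seeing the data, it was 0 against wild type for both genotypes under each scaling, while between *tw18*/*tw18* and *tw18*/+ it was 1 (*Strn3*) at equal sums with *Lars2* (0.59) and 1 without it (0.56), and 0 with median centring. The number of list genes higher in *tw18*/*tw18*, 5 on the deposited values, was 1 with a pseudocount of 1 and 8 at equal FPKM sums. The number lower, 4 on the deposited values, was 2 at equal FPKM sums, where *Lcmt1* and *Cttnbp2* no longer passed. Equal FPKM sums moved the log2 ratio of 9 of the 9 genes by more than the counting interval reaches to either side, equal sums without *Lars2* that of 8, *tw18*/+ as the reference that of 5, and median centring or a pseudocount of 1 that of 0. *Ppp6c* turned from -0.022 to 0.027 with median centring, 0.15 at equal sums without *Lars2* and 0.19 at equal sums, and *Strn* from -0.16 to 0.012 and 0.049 at equal sums without and with *Lars2*. No paired analysis was possible because there is 1 library per genotype and no test. By the estimated fragments *Strn* is least certain, with about 485 in wild type, a number that depends on the short transcript used for it.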
